A study of Mus musculus with 5 samples.

Results

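The striatal lineage transcription factors are the genes that specify and maintain the projection neurons of the striatum. They were taken here as 10 genes chosen by name, Foxp1, Foxp2, Bcl11b, Isl1, Meis2, Six3, Sp9, Ebf1, Zfp503 and Ikzf1. The names alone selected them, and they were proposed with earlier results of these data known. Of the 15093 genes of the table, 8 carried one of these names. Six3 and Ikzf1 were not listed and by this rule count as not expressed. The table lists only genes with a maximum over the libraries of at least 1.00 normalised reads, and it does not show what level these genes had.

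The study asked which ribosome-bound mRNAs of Drd2 neurons of the central amygdala (CeA) differ after fear learning. Drd2-TRAP mice carry a Drd2-Cre transgene from a bacterial artificial chromosome and a Rosa26 floxed-stop EGFP-Rpl10a allele, so that cells in which Cre has acted carry a tagged ribosomal protein. Both groups carried both alleles. Translating ribosome affinity purification (TRAP) then recovers the mRNA on tagged ribosomes, and no unbound or input fraction of the punches was analysed here. The fear conditioned group had 3 libraries (replicates 2, 3 and 4) and the control group 2 (replicates 6 and 7). A library held bilateral 1 mm punches over the CeA of 3 adult animals, taken 2 h after the session. The deposited labels describe the controls as home cage animals and the session as extinction, whereas the results text of the study describes tone-exposed controls and a conditioning session and its methods abbreviate the control group as HC.

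Projection neurons of the striatum are GABAergic and arise from the lateral ganglionic eminence. Foxp1, Bcl11b (also called Ctip2) and Meis2 are present in both of their classes. Six3 and Sp9 act in the differentiation of the Drd2 class of the indirect pathway, and Ikzf1 (Ikaros) in the differentiation of enkephalin neurons, while Isl1 and Ebf1 act in the Drd1 class of the direct pathway, where Foxp2 and Zfp503 (Nolz1) are also prominent. The CeA is itself a striatum-like, GABAergic part of the amygdala, and Meis2 and Foxp2 are also known from amygdala cell groups such as the intercalated cells.

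RefSeq promoter windows of assembly GRCm38.p6 were matched to 9 of the 10 genes, giving 13 promoters. Foxp2 had no entry. The 250 bases before the start of 3 genes are shown because these genes differ in level and in spread between the libraries. Isl1 was the factor whose groups did not overlap, Meis2 was the factor with the highest level, and Sp9 was the listed factor linked to the Drd2 class. Capitals mark a TATA box (TATAAA) or a GC box (GGGCGG, here as its reverse complement), searched on both strands. Lower case in the Isl1 window means that neither string occurs in it.
Isl1, chr13:116309689-116309938, minus strand: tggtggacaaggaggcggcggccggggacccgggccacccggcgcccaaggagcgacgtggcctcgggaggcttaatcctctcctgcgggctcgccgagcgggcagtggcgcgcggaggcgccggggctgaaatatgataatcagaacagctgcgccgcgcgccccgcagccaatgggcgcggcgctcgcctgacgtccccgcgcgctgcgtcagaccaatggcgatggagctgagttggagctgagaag
Meis2, chr2:116064620-116064869, minus strand: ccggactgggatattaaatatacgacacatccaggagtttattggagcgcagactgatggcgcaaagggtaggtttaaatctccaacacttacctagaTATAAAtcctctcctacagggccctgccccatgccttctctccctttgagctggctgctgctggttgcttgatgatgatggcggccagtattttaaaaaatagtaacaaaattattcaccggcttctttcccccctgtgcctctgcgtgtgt
Sp9, chr2:73271676-73271925, plus strand: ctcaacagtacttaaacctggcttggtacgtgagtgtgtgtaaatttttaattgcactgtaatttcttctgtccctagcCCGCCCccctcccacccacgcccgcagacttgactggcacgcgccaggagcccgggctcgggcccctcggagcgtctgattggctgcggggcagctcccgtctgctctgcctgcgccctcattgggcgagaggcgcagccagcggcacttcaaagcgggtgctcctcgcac
The TATAAA string of Meis2 began 152 bases before the start, and the GC box string of Sp9 began 171 bases before it. Over windows of 300 bases, which run 50 bases past the start, G and C made up 69.0% of the Isl1 window, 51.0% of that of Meis2 and 63.7% of that of Sp9. The median was 53.0% over the 13 windows and 52.7% over all 32851 RefSeq promoters. The ratio of observed to expected CpG had a median of 0.75 in the 13 windows and 0.38 in all promoters. The string TATAAA, at any position, was found in 2 of the 13 windows (Bcl11b and Meis2) and in 13.6% of all promoters. That of Bcl11b did not lie wholly within the 250 bases before the start. A GC box was found in 4 of 13 (Foxp1, Ikzf1 and Sp9) and in 35.7% of all. The strings TGACAG and TAATTA, the cores bound by Meis and by many homeodomain proteins, were found in 2 windows (Foxp1 and Six3) and in 1 (Foxp1), against 19.2% and 5.3% of all promoters. The cAMP response element TGACGTCA was in none of the 13 and in 1.8% of all promoters.

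The libraries held 19605318 to 27937520 reads on genes, and a value of 1 normalised read stood for 19.0 to 29.9 reads. The floor of 3 reads lay at 0.10 to 0.16 normalised reads. Genes at 0 numbered 159 to 349 in the fear conditioned libraries, 976 in control replicate 6 and 2681 in control replicate 7. Summed markers of astrocytes were at 500 to 660 normalised reads after fear conditioning and at 1445 to 2378 in controls. Those of the choroid plexus were at 59.4 to 111 and at 1021 to 1446, and those of oligodendrocytes at 1255 to 2658 and at 2715 to 5188. All fear conditioned libraries were below both controls for 4 of 7 astrocyte, 4 of 8 choroid plexus and 3 of 7 oligodendrocyte markers. The others overlapped, and the share below was 16.1% over all genes tested. In controls Slc1a2 held 843 and 1905 of the astrocyte sums, and Ttr 913 and 1320 of the choroid plexus sums. Log2 fold changes were above 0 for Gjb6 (1.93), Aldh1l1 (0.78), Clic6 (0.08) and Opalin (0.83). Of 8 CeA neuron markers, all were listed, with sums of 165 to 315 and 325 to 547. Sst held 146 and 280 of the control sums. All fear conditioned libraries were below both controls for 4 of the 8, and the other 4 overlapped. Log2 fold changes were above 0 for Crh (1.03), Tac2 (1.07) and Cartpt (0.42), and Tac2 was at 0 in control replicate 7. Prkcd stood at 11.2 to 11.9 normalised reads after fear conditioning and at 14.2 and 41.1 in controls. Without an input fraction, fewer cells of a type, less RNA per cell and carry-over of untagged RNA cannot be told apart in pooled tissue.

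The factors shared by both classes of projection neuron were the most abundant of the 8 in all 5 libraries and overlapped between groups. Foxp1 (ENSMUSG00000030067), a forkhead repressor, was at 295, 550 and 614 normalised reads after fear conditioning (replicates 2, 3 and 4, an order kept throughout) and at 262 and 426 in controls (replicates 6 and 7). Fear conditioned replicate 2 and control replicate 6 were low, and control replicate 7 fell between the fear conditioned libraries. The means were 487 ± 169 (SD, n = 3) and 344 ± 116 (SD, n = 2), a log2 fold change (fear conditioned minus control, of log2(value + 1)) of 0.47 with SE 0.39 and a 95% confidence interval from −0.48 to 1.43. The adjusted p from limma was 0.564.

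Bcl11b (ENSMUSG00000048251), a zinc finger protein required for the maturation of striatal projection neurons, was at 224, 363 and 453 normalised reads after fear conditioning and at 210 and 370 in controls. Replicates 2 and 6 were again the low ones, and the groups overlapped. The means were 347 ± 115 (SD, n = 3) and 290 ± 114 (SD, n = 2), with a log2 fold change of 0.25 ± 0.39 (SE) and a limma adjusted p of 0.764.

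Meis2 (ENSMUSG00000027210), a TALE homeodomain protein, was at 429, 578 and 624 normalised reads after fear conditioning and at 372 and 597 in controls. It ranked at or above the 97.5th percentile of listed genes in each of the 5 libraries. The log2 fold change was 0.19 ± 0.30 (SE), with a 95% interval from −0.54 to 0.91 and an adjusted p of 0.775 by limma. The intervals of Foxp1 and Bcl11b reach past a doubling, so the 5 libraries do not show that these levels were the same in both groups. Without control replicate 6 the log2 fold changes of Bcl11b and Meis2 turned to −0.15 and −0.15.

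**Figure D1:**
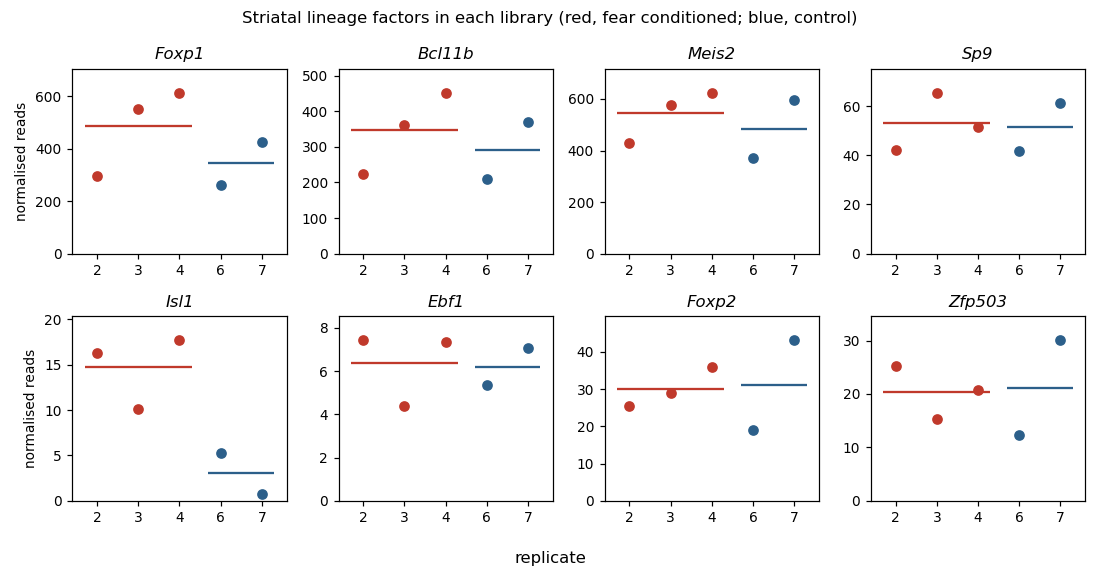
Normalised reads (vertical axis, linear from 0) of the 8 listed factors in each library (horizontal axis, replicate number), with fear conditioned libraries in red, controls in blue and a bar at each group mean. Only for Isl1 do the 3 fear conditioned points (10.1 to 17.7) all lie on one side of the 2 controls (0.791 and 5.24).

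Of the factors linked to the Drd2 class, Sp9 alone was listed. Sp9 (ENSMUSG00000068859), a zinc finger protein of the Sp family, was at 42.2, 65.5 and 51.7 normalised reads after fear conditioning and at 41.9 and 61.2 in controls. Control replicate 6 lay just under the lowest fear conditioned library, and control replicate 7 inside their range. The means were 53.2 ± 11.7 (SD, n = 3) and 51.5 ± 13.6 (SD, n = 2), with a log2 fold change of 0.05 ± 0.33 (SE), a 95% interval from −0.75 to 0.84 and an adjusted p of 0.953 by limma.

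Six3, a homeodomain factor, had no row, but its neighbouring antisense gene Six3os1 (ENSMUSG00000093460) did. This gene was singled out after its values were seen. It was at 1.42, 3.12 and 1.79 normalised reads after fear conditioning and at 5.18 and 10.4 in controls, from 30 to 75 and from 155 to 198 reads. All fear conditioned libraries were below both controls, with a log2 fold change of −1.47 ± 0.60 (SE) and a limma adjusted p of 0.296. The strand setting of the counting is not given in the sources used here, so reads of an antisense gene and of its partner cannot be told apart. Ikzf1, which is also a factor of blood and microglial cells, had no row although all 12 microglial markers did. Their sums were 68.8 to 132 normalised reads after fear conditioning and 129 to 157 in controls, with Sfpi1 (Spi1) at 0 in at least 1 library.

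Isl1 was the exception among the factors linked to the Drd1 class. Isl1 (ENSMUSG00000042258), a LIM homeodomain protein of direct pathway and cholinergic neurons, was at 16.3, 10.1 and 17.7 normalised reads after fear conditioning and at 5.24 and 0.791 in controls. These values stood for 343, 243 and 357 reads, and for 157 and 15 reads. All 3 fear conditioned libraries were above both controls, which held for 20.2% of all genes tested, and control replicate 7 was the lowest of the 5.

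The mean of Isl1 was 14.7 ± 4.04 (SD, n = 3) after fear conditioning and 3.02 ± 3.15 (SD, n = 2) in controls, a ratio of 4.87. The log2 fold change was 2.20 ± 0.72 (SE), with a 95% interval from 0.46 to 3.93 and an unadjusted p of 0.0208 by limma. After adjustment over all genes tested the p was 0.234, and the exact permutation test gave 0.1, which no result of this design can go below. Over 7 other settings with all 5 libraries the adjusted p ranged from 0.118 to 0.337.

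The size of the difference moved with the control library used. Exact Poisson 95% intervals, which cover counting error only, ran from 4.45 to 6.13 normalised reads in control replicate 6 and from 0.443 to 1.30 in replicate 7. The controls differed from each other by 2.73 on the log2 scale. Leaving out control replicate 6 gave a log2 fold change of 3.10, with an adjusted p of 0.000523 in a fit that called 60.5% of all genes. Leaving out control replicate 7 gave 1.29, with an adjusted p of 0.0371 in a fit that called 27.5%. Of the cholinergic neuron markers, 5 of 7 were listed, none was separated between groups, and Slc18a3 and Lhx8 were not listed. Their sums were 43.3 to 118 normalised reads after fear conditioning and 61.4 to 63.4 in controls. Chat, which makes acetylcholine, was at 18.7, 10.1 and 34.2 normalised reads and at 7.15 and 18.2, with Ngfr at 0 in 1 control library. Their part in the Isl1 values was not tested.

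Ebf1 (ENSMUSG00000057098), a helix-loop-helix factor of the direct pathway, was at 7.44, 4.37 and 7.35 normalised reads after fear conditioning and at 5.34 and 7.07 in controls. Both controls lay inside the range of the fear conditioned libraries. The log2 fold change was 0.02 ± 0.55 (SE), with an adjusted p of 0.991 by limma. Mural and endothelial markers, cells in which Ebf1 is also found, were also summed. Of the 12 in that list 11 were listed, and Kcnj8, Abcc9, Tek and Tbx18 were at 0 in at least 1 library. Library by library the sums were 48.6, 15.3 and 39.0 after fear conditioning and 85.6 and 91.1 in controls. Fear conditioned replicate 3 was thus lowest in both. In controls Rgs5 held 48.3 and 36.2 of these sums and Kdr 0.234 and 31.3. The markers were split, with 3 higher in all fear conditioned libraries, 2 lower and 6 overlapping. Over all genes tested 20.2% were higher and 16.1% lower. The part of these markers in the Ebf1 values was not tested.

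Foxp2 (ENSMUSG00000029563), the forkhead paralogue of Foxp1, was at 25.5, 28.9 and 36.0 normalised reads after fear conditioning and at 19.0 and 43.2 in controls. Zfp503 (ENSMUSG00000039081), a zinc finger repressor, was at 25.2, 15.3 and 20.8 and at 12.3 and 30.1. For both genes the controls were the lowest and the highest of the 5 libraries, with all fear conditioned libraries between them. The log2 fold changes by limma were 0.05 ± 0.45 (SE) for Foxp2, with an adjusted p of 0.961, and 0.05 ± 0.52 (SE) for Zfp503, with an adjusted p of 0.968. Both turned below 0 with TMM scaling in edgeR, at −0.06 and −0.07, and in DESeq2, at −0.09 and −0.10.

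**Figure D2:**
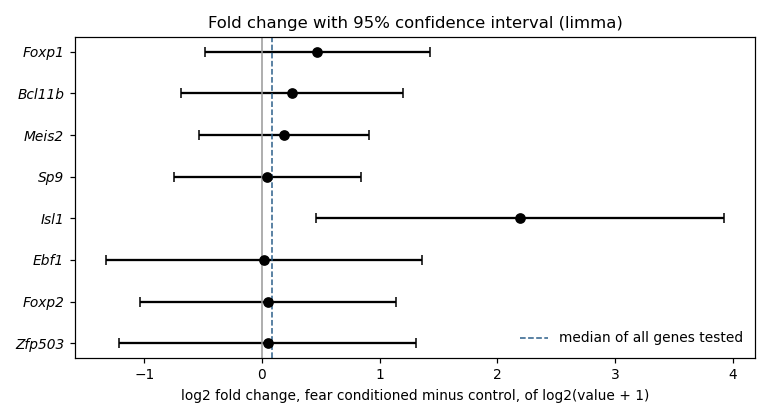
Log2 fold change between fear conditioned and control libraries (horizontal axis) of the 8 listed factors, with 95% confidence intervals from limma and a dashed line at the median of all genes tested (0.08). The interval of Isl1 runs from 0.46 to 3.93, and the other 7 span 0.

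None of the 8 listed factors passed an adjusted p under 0.05 with an absolute log2 fold change over 0.5. The same was true of all 13560 genes tested by limma (0%), with a smallest adjusted p of 0.197. All 8 passed the filter of a mean of at least 1 normalised read. At an unadjusted p under 0.05, 1 of the 8 was higher after fear conditioning (Isl1) and 0 were lower, against 9.49% and 7.32% of all genes. By DESeq2, edgeR's quasi-likelihood test and its likelihood ratio test, 0 of the 8 passed both cutoffs. DESeq2 called 7.47% of all genes, the likelihood ratio test 7.7% and the quasi-likelihood test 0%, and with 8 genes a count of 0 is near each of these shares. The groups did not overlap for 1 of the 8, against 20.2% of all genes higher and 16.1% lower. The median log2 fold change was 0.12 for the 8 and 0.08 for all genes, and the latter median moved to −0.04 with TMM scaling and to −0.11 with that of DESeq2.

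Most of the factors were low in the same library. Control replicate 6 was the lowest library for 6 of the 8, and the sum of the 8 was 1065, 1615 and 1825 normalised reads in the fear conditioned libraries, against 927 and 1536 in controls. Foxp1, Bcl11b and Meis2 made up 89.1% to 92.7% of that sum in every library. Between the controls, 7 of the 8 were higher in replicate 7, by 0.40 (Ebf1) to 1.30 (Zfp503) on the log2 scale. Isl1 was lower there by 2.73. The shares of all genes lowest in replicate 6 or higher in replicate 7 were not computed. The median absolute difference between the controls, of log2(value + 1), was 0.76 for the 8 and 1.08 for all genes tested. Over all genes the values summed to 932938 in control replicate 6, the least of the 5 libraries, and to 1033816 in control replicate 7. Without control replicate 7, 7 of the 8 factors had all fear conditioned libraries above the remaining control, against 37.1% of all genes. Without control replicate 6, Isl1 was higher than the remaining control in all fear conditioned libraries, Foxp2 and Zfp503 were lower, and 87.7% of all genes did not overlap in one direction or the other.

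Per kilobase of gene length, the order of mean levels over the 5 libraries was Meis2 at 39.7 normalised reads per kilobase, Bcl11b at 31.5, Foxp1 at 28.2, Sp9 at 10.2, Zfp503 at 3.64, Foxp2 at 2.63, Isl1 at 2.34 and Ebf1 at 0.636. Meis2 was above Bcl11b in 5 of 5 libraries, by 0.37 ± 0.18 (SD, n = 5) on the log2 scale. Bcl11b and Foxp1 were close, with a log2 ratio of 0.17 ± 0.15 (SD, n = 5) that held its sign in 4 of 5 libraries. The step from Foxp1 to Sp9 (1.42 ± 0.37) and that from Sp9 to Zfp503 (1.53 ± 0.55) were in order in all 5. Zfp503 was above Foxp2 in 5 of 5 by 0.45 ± 0.35. The places of Isl1 below Foxp2 (0.73 ± 2.07, 3 of 5 libraries) and above Ebf1 (1.30 ± 1.89, 4 of 5) did not exceed the spread. Sp9, linked to the Drd2 class, had a higher level per kilobase than Zfp503, Foxp2, Isl1 and Ebf1, which are linked to the Drd1 class. Six3 and Ikzf1, also linked to the Drd2 class, were not listed, so this order holds for Sp9 and not for its class.

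**Figure D3:**
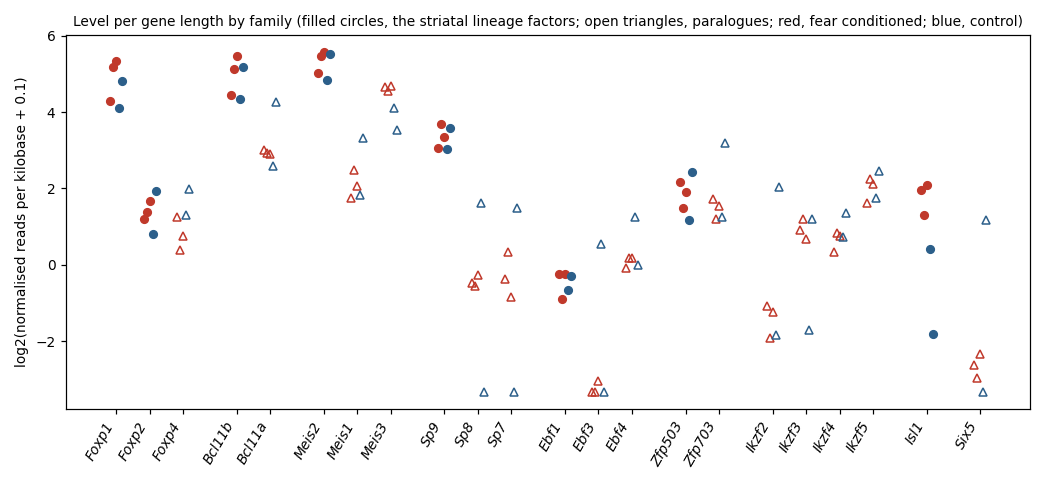
Level per kilobase of gene length, as log2(normalised reads per kilobase + 0.1), of the 8 listed factors (filled circles) and their listed paralogues (open triangles) in each library (red, fear conditioned; blue, control), grouped by family. Of the genes drawn in each family, Foxp1, Bcl11b, Meis2 and Sp9 have the highest means (Sp9 beside Sp7 and Sp8 only), at 28.2, 31.5, 39.7 and 10.2 normalised reads per kilobase. Ebf4 (1.22) and Zfp703 (3.91) have higher means than Ebf1 (0.636) and Zfp503 (3.64).

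Of 21 paralogues of the 10 factors, 14 were listed. Meis3 was the highest of them, at a mean of 20.6 normalised reads per kilobase, and stood below Meis2. It was at 69.6, 64.3 and 71.1 normalised reads after fear conditioning and at 47.3 and 31.4 in controls, with all fear conditioned libraries above both controls. Its log2 fold change was 0.81 ± 0.29 (SE), with an adjusted p of 0.254 by limma, and 0.52 without control replicate 7. Bcl11a, at a mean of 9.54 per kilobase, and Foxp4, at 2.26, stood below Bcl11b and Foxp1. Foxp4 was close to Foxp2 at 2.63, and Zfp703 at 3.91 was close to Zfp503 at 3.64. Ebf4, at 1.22 per kilobase, stood above Ebf1 at 0.636.

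With Ikzf1 not listed, the Ikaros family was present as Ikzf2, Ikzf3, Ikzf4 and Ikzf5, at means of 1.01, 1.57, 1.69 and 4.09 per kilobase. Ikzf3 had the largest positive log2 fold change of the paralogues, at 1.17 with an adjusted p of 0.521 by limma and at 0.55 to 0.71 in edgeR and DESeq2. It was at 16.5, 20.0 and 13.7 normalised reads after fear conditioning and at 1.87 and 20.0 in controls, so that the groups overlapped through control replicate 7. Ebf3 had the largest negative one, at −1.63 with an adjusted p of 0.440. It was at 0, 0 and 0.149 normalised reads after fear conditioning and at 9.45 and 0 in controls, a difference carried by control replicate 6 alone. Its fitted log2 fold change was −3.32 without control replicate 7, −2.85 with a pseudocount of 0.1 and −6.56 by DESeq2. Of the 14 paralogues tested, 1 was higher and 0 lower at an unadjusted p under 0.05, against 9.49% and 7.32% of all genes. Their median log2 fold change was −0.47.

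Among 22 other striatal and subpallial factors, 20 were listed, and 0 of the 19 tested passed both cutoffs. At an unadjusted p under 0.05, 2 were higher and 3 lower, against 9.49% and 7.32% of all genes. The median log2 fold change of the 19 was −0.24. Rxrg, a retinoid X receptor of striatal neurons, had the highest level per kilobase and was at 282, 319 and 447 normalised reads after fear conditioning and at 152 and 91.6 in controls. Its groups did not overlap, and its log2 fold change of 1.53 ± 0.32 (SE) had an adjusted p of 0.197 by limma. Over 8 other settings the adjusted p of Rxrg was 0.00243 to 0.197. The study itself reported Rxrg as raised. Egr3, an activity-dependent zinc finger factor, had the largest positive log2 fold change, at 1.99 with an adjusted p of 0.313. It was at 6.97, 12.6 and 8.54 normalised reads and at 5.11 and 0.0527, the last of which was 1 read. The log2 fold change was 0.73 without control replicate 7 and 3.26 without control replicate 6, and 3.36 with a pseudocount of 0.1.

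Nr2f2, a nuclear receptor of the caudal ganglionic eminence and of amygdala cells, had the largest negative log2 fold change of that list, at −2.77 ± 0.52 (SE) with an adjusted p of 0.197 by limma. It was at 26.8, 20.4 and 8.19 normalised reads after fear conditioning and at 120 and 120 in controls. The controls were close to each other and above all fear conditioned libraries. The marker sums of astrocytes, oligodendrocytes and choroid plexus given above were also higher in both controls. So were those of CeA neurons, of mural and endothelial cells and of pallial glutamatergic neurons. The sums of microglial and cholinergic markers overlapped, and that of intercalated cell markers was lower in both controls. The part of any of these cell types in the Nr2f2 values was not tested.

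Factors of neighbouring progenitor domains were lower in level than the shared striatal factors. Of 7 factors of the medial ganglionic eminence, which gives rise to interneurons and pallidal neurons, 6 were listed. At an unadjusted p under 0.05, 0 of them were higher or lower, against 9.49% and 7.32% of all genes. Lhx6 was at 14.98, 13.7 and 16.1 normalised reads after fear conditioning and at 47.4 and 0.527 in controls, and its log2 fold change was 0.89 by limma but between −0.67 and −0.63 in edgeR and DESeq2. The controls were again the lowest and the highest libraries. Zic1 (log2 fold change 1.45) was at 2.47, 2.42 and 6.50 and at 1.10 and 0.264, and Sox6 (−1.19) at 7.11, 3.41 and 7.55 and at 47.1 and 3.90. The value of Zic1 was 0.59 under quantile normalization and 2.46 to 2.51 in edgeR and DESeq2. That of Sox6 was −2.07 to −2.02 in edgeR and DESeq2, −2.84 without control replicate 7 and 0.46 without control replicate 6.

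Of 12 pallial factors, which mark glutamatergic cortical and basolateral amygdala lineages, 11 were listed, with a median log2 fold change of −0.26. At an unadjusted p under 0.05, 3 were higher and 2 lower, against 9.49% and 7.32% of all genes. Neurod6, the highest per kilobase, was at 22.7, 13.7 and 4.12 normalised reads after fear conditioning and at 36.6 and 4.48 in controls, and the groups overlapped. Lhx2 was at 14.2, 11.1 and 8.79 and at 5.18 and 0, with a log2 fold change of 2.29 (adjusted p = 0.272, limma). Without control replicate 7 it was 0.98, without control replicate 6 it was 3.60, and with a pseudocount of 0.1 it was 3.95. Neurod2 was at 7.11, 9.41 and 1.49 and at 20.0 and 33.0, with a log2 fold change of −2.17 (adjusted p = 0.251, limma). The 8 markers of pallial glutamatergic neurons, some of which are also among the pallial factors, were all listed and summed to 82.3 to 265 normalised reads after fear conditioning and to 338 to 471 in controls. Of these 8, 2 were higher and 2 lower at an unadjusted p under 0.05, beside the same shares of all genes. Rspo2 was at 0 in at least 1 library. The part of these markers in the pallial factors' values was not tested.

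The effector genes of striatal projection neurons, which carry their dopamine, adenosine and peptide signalling, were set beside the factors. All 12 effectors were listed, and 0 passed both cutoffs. At an unadjusted p under 0.05 by limma, 9 of 12 were higher and 0 lower, against 9.49% and 7.32% of all genes. The median log2 fold change of the effectors was 1.19, against 0.12 for the lineage factors. This list was chosen with earlier results of these data known, and the study itself reported Adora2a and Gpr6 as raised. Among genes of the other lists used here, it named Rxrg as raised and Ttr, Kcnj13 and Dlk1 as lowered. Penk, the precursor of enkephalin, was at 16076, 13564 and 14950 normalised reads after fear conditioning and at 6098 and 8606 in controls, with a log2 fold change of 1.03 ± 0.41 (SE; adjusted p = 0.285, limma). Quantile normalization, which gives the highest gene of each library the same value, left no difference in Penk (adjusted p = 1). Adora2a, an adenosine receptor of indirect pathway neurons, was at 453, 771 and 775 and at 105 and 275, with a log2 fold change of 1.92 ± 0.47 (SE; adjusted p = 0.200, limma). The log2 fold change of Adora2a was 1.23 without control replicate 6 and 2.62 without control replicate 7. Penk, Adora2a, Rxrg and Nr2f2 passed both cutoffs by DESeq2 and by the likelihood ratio test. Pdyn, the precursor of dynorphin and a gene of the Drd1 class, had the smallest log2 fold change, at 0.38, and its groups overlapped at 57.9, 34.9 and 55.1 against 37.2 and 36.1. Drd1a and Tac1, also of the Drd1 class, had log2 fold changes of 1.23 and 1.52 (adjusted p = 0.291 and 0.206, limma). For both genes all fear conditioned libraries were above both controls.

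**Figure D4:**
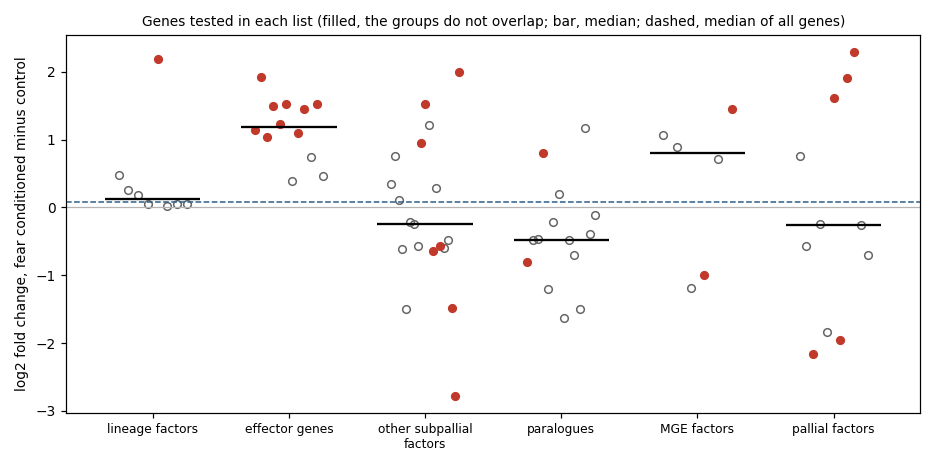
Log2 fold change (vertical axis) of each gene tested in 6 lists, with a bar at the list's median, filled points where the groups do not overlap and a dashed line at the median of all genes tested (0.08). The lineage factors other than Isl1 lie between 0.02 and 0.47 and the 12 effector genes between 0.38 and 1.92, so that Foxp1 lies inside the effectors' range.

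Relative to the geometric mean of Foxp1, Bcl11b and Meis2 in the same library, a description added after the values were seen, 9 of the 12 effectors were higher in all fear conditioned libraries than in both controls, and the median difference was 0.91 on the log2 scale. The 3 that overlapped were Tac1, Pdyn and Pde10a, of which Tac1 did not overlap in its normalised reads. Adcy5, counted among the 9, did overlap in its normalised reads. On the relative scale its closest values were 0.63 in fear conditioned replicate 4 and 0.59 in control replicate 7. Drd2, the gene whose promoter drives Cre, stood at 0.10, −0.38 and −0.01 on this log2 scale after fear conditioning and at −1.09 and −0.80 in controls. Adora2a stood at 0.57, 0.66 and 0.47 and at −1.39 and −0.72. No test was made of these ratios, and the share of all genes with such a separation was not computed. The part of the cell type marker differences named above in these ratios was not tested.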

How the data were processed

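Ribosome-bound RNA was measured in 5 libraries, 3 of fear conditioned and 2 of control mice, grouped by their labels. SMARTer and NexteraXT libraries were sequenced by the authors, whose methods name Tuxedo DESeq and whose processing notes name DESeq and the build mm8. The aligner version and strand setting are not given in the sources used here. The authors deposited a normalised signal per gene and library with a gene length. In each library 100% of values came out whole (within 0.01) when divided by the least value that was not 0, and the quotients were taken as recovered reads. The table has 43 repeated gene names, and genes were joined by identifier. Each pool held 3 animals, and p-values measure the spread between pools.

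Groups were compared with limma 3.58.1 (lmFit, eBayes with trend, two-sided) after adding 1 and taking log2. The 13560 of 15093 genes whose mean reached 1 were tested, with Benjamini-Hochberg adjustment. A gene was called where the adjusted p was under 0.05 and the log2 fold change was past 0.5 in either direction. Single factors were also compared by a two-sided exact permutation test over 10 divisions. Alternatives were a pseudocount of 0.1, other filters, quantile normalization, each library left out, and, on recovered reads, edgeR 4.0.16 (quasi-likelihood and likelihood ratio) and DESeq2 1.42.0. The fits were tested on simulated data. All 10 factors are named, and of each further list the gene with the highest level per kilobase and those with the largest positive and negative change (for the effectors, the smallest), since none was called. Other genes were named after their values were seen. The factors and lists were chosen with earlier results of these data known. Promoters are from RefSeq, assembly GRCm38.p6, and their coordinates are not of the authors' build. R 4.3.3 and Python 3.11.15 were used.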

Additional observations from a re-analysis of the deposited data

How the results depend on the processing

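No paired analysis was possible because the groups share no replicate numbers. The count of all genes past both cutoffs was 0 by limma, 1115 by edgeR's likelihood ratio test and 1128 by DESeq2, and 0 to 8025 with 1 library left out (8025 without control replicate 6, 3722 without control replicate 7). A fit that leaves 1 control assumes that it varies like the fear conditioned libraries. Of the striatal lineage factors, 0 to 1 passed with 1 library left out, the 1 being Isl1 without either control. The groups did not overlap for 0 factors under a filter that asks for 1 in each of the 5 libraries, which leaves Isl1 untested, and for 1 to 7 with 1 library left out. The median log2 fold change of the factors then ran from −0.16 to 0.64. The log2 fold change of Foxp2 was −0.058 with either edgeR test and TMM and −0.090 by DESeq2, and that of Zfp503 was −0.067 with edgeR's quasi-likelihood test, −0.066 with its likelihood ratio test and −0.10 by DESeq2. That of Lhx6 was −0.63 with either edgeR test and TMM, −0.64 with upper quartile scaling and −0.67 by DESeq2. The cause was not tested. With 1 library left out, sign changes occurred for Bcl11b (−0.15 to 0.66), Meis2 (−0.15 to 0.53), Sp9 (−0.22 to 0.31), Ebf1 (−0.16 to 0.23), Foxp2 (−0.52 to 0.62), Zfp503 (−0.57 to 0.67), Ikzf3 (−0.26 to 2.61), Lhx6 (−1.61 to 3.38), Sox6 (−2.84 to 0.46) and Neurod6 (−1.63 to 1.14). Foxp1 (0.12 to 0.82) and Isl1 (1.29 to 3.10) kept their sign under each setting run. Without division by length, Foxp1 ranked 2, Bcl11b 3, Foxp2 5 and Zfp503 6 among the 8. With 2 control libraries, intervals of the factors other than Isl1 allow changes of 0.5 or more on the log2 scale.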
